A study of Mus musculus with 10 samples.

Results

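The probe sets described here have identifiers with a nuclear chromosome field and no gene symbol in the platform annotation. They were selected as the probe sets whose identifier is not that of a control (it does not begin with AFFX, MG- or ERCC), whose gene symbol is empty, and whose chromosome field, the letters after TC in the identifier, is not mitochondrial. This selected 2625 of the 22206 probe sets that are not controls, or 11.8%. The array held 28846 probe sets in all: besides the unnamed ones, 19572 carried a gene symbol, 6640 were controls, and 9 were unnamed but mitochondrial. A probe set without a symbol is unnamed in this annotation, which can be old, and is not thereby shown to lie outside a gene.

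Transcript arrays carry such probe sets because they were designed from transcript collections that include predicted genes, pseudogenes, noncoding transcripts and extra copies of gene families, many of which never received a symbol. Many of these sequences are repeated in the genome, so a probe made for one copy can bind RNA of another. In the mouse this holds above all for the long arm of the Y chromosome, which is built largely of repeated copies of a few gene families whose known expression is mainly in the testis. Hybridization controls are bacterial and phage transcripts added to the mixture before hybridization, and negative controls are probe sets for sequences that the sample should not contain.

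Lung RNA came from male C57BL/6J mice aged 6 weeks, 40 mice in 5 groups of 8, after 20 days of treatment (1 passage of the labels gives the age in years, read here as a slip for weeks). Mice of one group had no tumour cells injected and were given water. In the other 4 groups B16F10 cells, a mouse melanoma line of C57BL/6 origin that can grow in the lung, were injected, and treatment was water, 70 mg/kg/day of dacarbazine (DTIC, a melanoma drug that alkylates DNA), or 5 or 25 mg/kg/day of the compound SQ-diEG. The route of injection and the tumour load were not given in the labels. Each group has 2 arrays, 10 in all. Whether an array was hybridized with RNA from a single mouse or a pool is not stated, so p-values rest on a spread between arrays that may be technical only. In whole lung RNA, fewer cells of a type and less RNA per cell cannot be told apart.

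All values are the deposited log2 levels, and a level is read against the 95th percentile of the negative controls of the same array, called the negative-control limit here, which lay between 10.67 and 11.05. The labelled tissue was not visible above that limit: 0 of 6 lung epithelial marker genes (Sftpc, Sftpb, Sftpa1, Sftpd, Scgb1a1 and Ager), 0 of 4 endothelial and 0 of 5 melanoma markers exceeded it on any array, nor did the 2 of 6 blood cell markers that the array carried. Of 6 housekeeping genes, 2 exceeded it on at least 1 array, and their means over the 10 arrays lay between 8.26 and 10.15. On every array the median of the probe sets with a gene, 7.33 to 7.40, was below the median of the negative controls, 7.56 to 7.74. The sources describe labelling for 3' arrays, whereas the probe sets are numbered in the way of whole-transcript arrays, so what the labelled RNA bound at each probe set cannot be settled from the files. The number of arrays and the low signal limit the precision of every statement below.

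By their median, the unnamed probe sets were brighter than the probe sets with a gene on all 10 arrays. Their median level lay between 7.42 and 7.73, with a median over arrays of 7.64, and it exceeded the median of the probe sets with a gene by 0.05 to 0.34 (mean difference 0.25 ± 0.09, SD, n = 10 arrays). Their upper end stood out more than their middle. The 95th percentile of the unnamed probe sets lay between 9.55 and 11.04, against 9.29 to 9.47 for those with a gene. The median of the unnamed probe sets was 7.49 ± 0.09 in uninjected water, 7.70 ± 0.03 in injected water, 7.64 ± 0.12 under DTIC, 7.57 ± 0.06 under SQ-diEG at 5 mg/kg and 7.70 ± 0.04 at 25 mg/kg (SD, n = 2 in each). Both uninjected arrays lay below both injected water arrays. The second uninjected array, at 7.56, lay above the first SQ-diEG 5 mg/kg array, at 7.53, so uninjected and injected arrays overlapped.

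**Figure D1:**
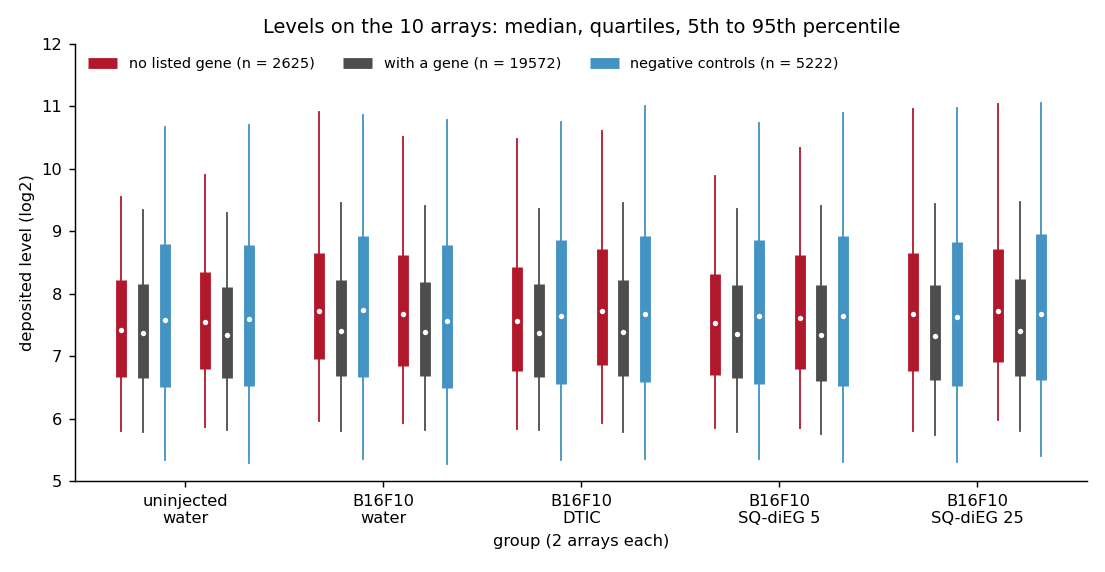
Distribution of deposited log2 levels on each of the 10 arrays, grouped by treatment, for the unnamed probe sets (red), probe sets with a gene (grey) and negative controls (blue): the white point is the median, the thick bar the quartiles and the thin line the 5th to 95th percentile. The red medians lie above the grey ones on all 10 arrays, and most red bars lie below the upper end of the blue lines, which is the negative-control limit of 10.67 to 11.05.

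Few of the unnamed probe sets exceeded the negative-control limit. Between 34 and 134 of the 2625 (1.30% to 5.10%) did so on a given array, against 0.291% to 0.450% of the probe sets with a gene. By the definition of the limit, 5.02% of the negative controls themselves exceeded it on every array, about the highest share that the unnamed probe sets reached. Over the 10 arrays, 2340 unnamed probe sets (89.1%) were at or below the limit everywhere and 285 exceeded it at least once. On at least 5 arrays it was 70 (2.67%), and on all 10 it was 22 (0.838%). Among the 19572 probe sets with a gene, 525 exceeded the limit at least once, 20 on at least 5 arrays and 0 on all 10.

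The highest levels on the arrays belonged to unnamed probe sets, and they lay at the top of the deposited scale. TC0200004196.mm.2, TC0900001764.mm.2, TC0X00001785.mm.2 and TC1100000047.mm.2 held the maximum of the array on all 10 arrays. Their levels, the same for these 4 on each array, were 19.93 and 19.93 in uninjected water, 19.86 and 19.89 in injected water, 19.93 and 19.85 under DTIC, 19.93 and 19.87 under SQ-diEG at 5 mg/kg, and 19.85 and 19.84 at 25 mg/kg. Values at the array maximum have no order. Altogether 13 unnamed probe sets came within 0.1 of the array maximum on at least 1 array, 5 to 13 of them on a given array. No probe set with a gene did so on any array, whereas 22 negative controls did on some array and 0 on all.

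These values sat partly in 1 run of neighbouring identifiers, which was singled out after its values were seen. The 8 unnamed probe sets TC0900000001.mm.2 to TC0900000008.mm.2, at the start of the numbering of the chromosome field 9, had means of 18.51 to 19.87 and single values of 14.47 to 19.93. TC0900000002.mm.2, with a mean of 19.87, had the fifth highest mean of all unnamed probe sets. With this run counted, 28 of the 70 unnamed probe sets above the limit on at least 5 arrays (40.0%) had another of these 70 at the next identifier number. For all unnamed probe sets with a numbered chromosome field, 602 of 2586 (23.3%) had another unnamed one at the next number. Outside the Y field the corresponding shares were 8 of 34 (23.5%) and 475 of 2412 (19.7%). These 8 are the run itself, and the other bright neighbours are in the Y field. The sets differ in size and so in how densely they fill the numbering, and their shares were not tested against each other.

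At the low end lay probe sets whose means over the 10 arrays, 5.55 and 5.70 for the lowest, were under the average of the 23 background probe sets, which was 7.17 to 7.29 on the single arrays. TC0200002438.mm.2 was lowest, with 5.34 and 5.37 in uninjected water, 4.78 and 4.82 in injected water, 6.00 and 6.18 under DTIC, 5.60 and 4.82 under SQ-diEG at 5 mg/kg, and 7.55 and 5.01 at 25 mg/kg. TC1500000596.mm.2 followed, with 5.15 and 5.90, 5.26 and 5.55, 5.41 and 6.14, 5.56 and 5.10, and 6.79 and 6.12 in the same order. For both, the highest value of the 10 was the first array of SQ-diEG at 25 mg/kg, which for TC0200002438.mm.2 lay above the background average, while the second array of that group did not.

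Unnamed probe sets were not spread evenly over the identifiers. The Y field held 174 unnamed probe sets among 219 (79.5%), and the field 14 held 236 (25.6% of its probe sets). The other 19 chromosome fields had 7.37% to 18.1% unnamed, while 20 unnamed probe sets were on scaffolds and 19 had no mapped chromosome. The field is part of the identifier only; no coordinates were used.

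Level followed the field. The unnamed probe sets of the Y field had a median mean level of 9.07, and the 45 Y-field probe sets with a gene had 8.80, so both kinds were high there. In the field 14 the unnamed ones were at 7.98 and those with a gene at 7.41. In the other 19 fields the unnamed medians ran from 7.37 to 7.60 and those with a gene from 7.38 to 7.48, the unnamed being higher in 17 of 19. Of the 70 bright unnamed probe sets, 36 were in the Y field, which is 20.7% of its unnamed members, 4 in the field 14 and 30 in the other 19 fields, 10 of these in the field 9. The single-copy Y genes Kdm5d, Eif2s3y and Uty, which are expressed in most male tissues, and Usp9y were looked up after the Y values were seen. They had means of 6.99 to 7.71, and 0 of 4 exceeded the negative-control limit on any array. Kdm5d came nearest, with 10.97 on 1 array.

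**Figure D2:**
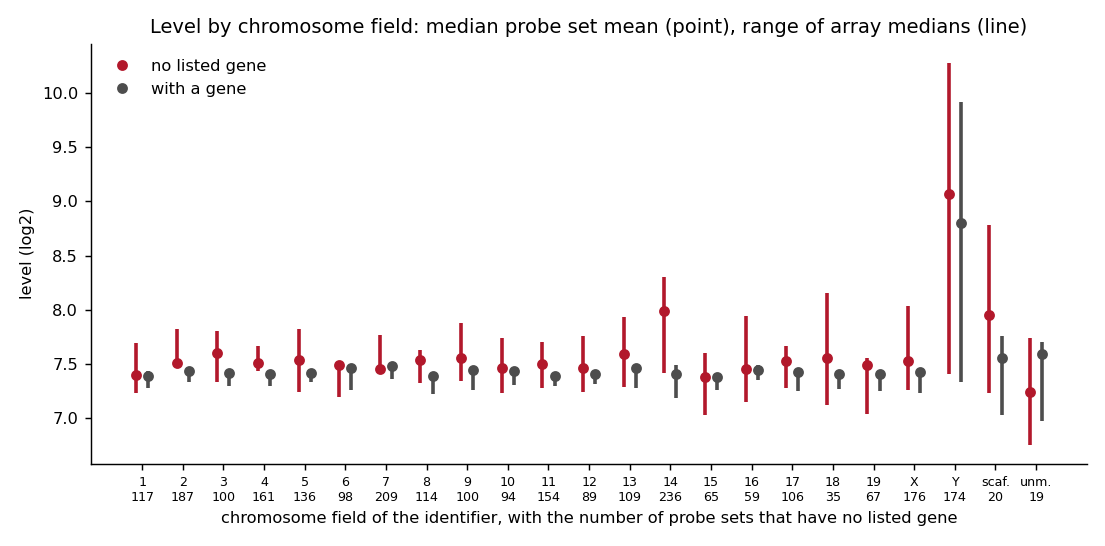
Log2 level by chromosome field of the identifier for unnamed probe sets (red, number under each field; scaf. is scaffold, unm. is unmapped) and probe sets with a gene (grey); points are the median of the probe set means and lines the range of the medians of the 10 arrays. The Y field stands highest for both kinds, at 9.07 and 8.80, and the unnamed probe sets of the field 14 stand at 7.98.

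Some unnamed probe sets were not separate measurements. Of the 2625, 140 (5.33%) shared all 10 values with at least 1 other unnamed probe set, in 60 shared profiles of up to 6 probe sets, which left 2545 distinct profiles. Among probe sets with a gene, 51 of 19572 (0.261%) did so. The Y field held 51 of the 140, the field 7 held 22, the field 2 held 18 and the X field 15. The 140 include the 4 probe sets at the array maximum on all 10 arrays. Their values are equal because each is the maximum, so this tie does not show a shared measurement. A further comparison of the 10 values matched 47 unnamed probe sets exactly to probe sets of 38 genes.

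These matches tie unnamed identifiers to known repeated families. In the Y field there were 11, among them TC0Y00000388.mm.2 with Gm20852, TC0Y00000354.mm.2 with Gm20823 and TC0Y00000556.mm.2 with Ssty1, a gene of a multicopy Y family expressed in spermatids. In the field 7 most matched Vmn1r genes, which encode vomeronasal pheromone receptors, such as TC0700002512.mm.2 with Vmn1r250. Others matched Defa31 and Defa43, genes of the alpha-defensin family, and H2al1a, a histone H2A variant gene of the testis. TC0X00000500.mm.2 matched Gm14594. An equal profile below the array maximum says that both probe sets carry the same measurement, and which copy gave the RNA cannot be told apart. These examples were picked after the values were seen.

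Arrays of the same group agreed hardly better on the unnamed probe sets than arrays of different groups. Across the 2625 probe sets, which are not independent replicates, Pearson's r averaged 0.638 (0.538 to 0.726) over the 5 pairs within groups and 0.610 (0.443 to 0.706) over the 40 pairs between groups. Spearman's rho was 0.345 within and 0.325 between groups. Probe sets with a gene gave 0.213 within and 0.203 between, and negative controls 0.355 and 0.341.

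Part of the higher r of the unnamed probe sets came with a small bright tail. Without those whose mean exceeded the mean limit, 2561 were left, with r of 0.348 within and 0.314 between groups. Outside the Y field, 2418 of these gave 0.300 and 0.280. Probe sets with a gene that met the same limit gave 0.207 and 0.198, and over all probe sets with a gene Spearman's rho was 0.194 and 0.188, so the unnamed probe sets stayed above them by each of these measures. Within the Y field the 174 unnamed probe sets gave 0.646 on average within groups, from 0.257 to 0.892, and 0.611 between groups, from 0.018 to 0.873.

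**Figure D3:**
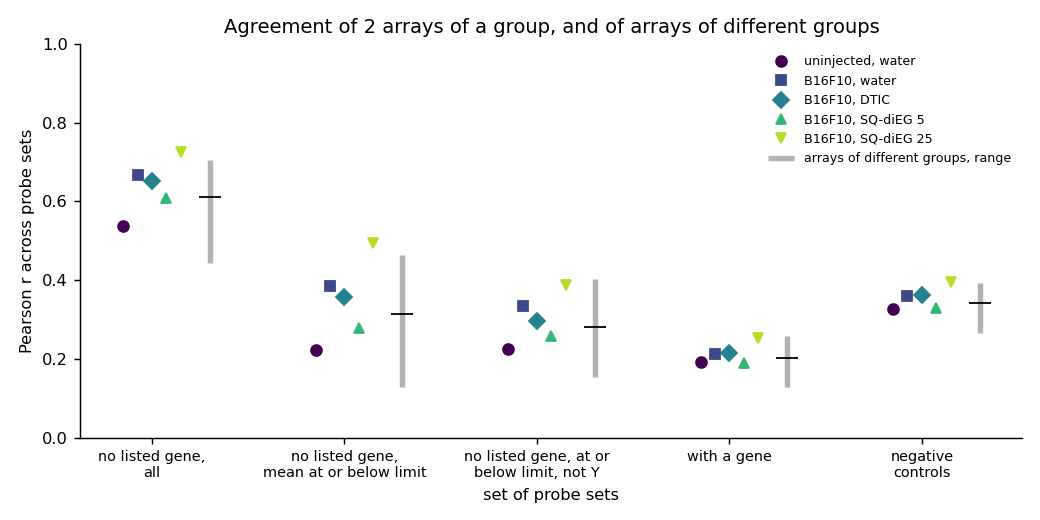
Pearson correlation across probe sets between the 2 arrays of each group (coloured symbols) and between arrays of different groups (grey line, range over 40 pairs; black mark, mean), for 5 sets of probe sets. The unnamed probe sets average 0.638 within groups and 0.610 between groups, and those at or below the negative-control limit 0.348 and 0.314.

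Repeatability of single probe sets was no better than for genes. The median standard deviation between arrays of a group was 0.93 for unnamed probe sets (quartiles 0.73 and 1.17), 0.91 for probe sets with a gene, 1.37 for negative controls, 0.57 for the 4 hybridization controls and 0.07 for the background probe sets. In the Y field the unnamed probe sets had 1.10. A standard deviation under 0.5 was found for 179 unnamed probe sets (6.82%) and 1505 with a gene (7.69%). By level, the median was 0.93 for unnamed probe sets at or below the limit, 1.15 for the 51 above it that stayed away from the array maximum, and 0.14 for the 13 that came within 0.1 of it. For these 13 the maximum bounds the values from above, so their small spread is not a measure of repeatability. The 51 may hold bounded values too, which was not tested. TC0300001395.mm.2 had 17.60 and 17.64 in injected water, where the array maxima were 19.86 and 19.89. At 25 mg/kg of SQ-diEG it had 17.59 and 17.58, with maxima of 19.85 and 19.84.

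Injection of B16F10 cells was compared first, with injected water set against uninjected water. The comparison takes the injection and the tumour cells together. In this comparison 7 unnamed probe sets were higher in injected water and 0 were lower at an adjusted p under 0.05 (limma, Benjamini-Hochberg over all 22206 probe sets), with 0.0315% of all probe sets called. All 7 calls were unnamed probe sets, but they hold only 3 distinct profiles: 6 are from the Y field and 1 is TC1600000188.mm.2. They lie at adjusted p = 0.049, just under the threshold.

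TC0Y00000072.mm.2 and TC0Y00000074.mm.2 share 1 profile. They had 10.47 and 11.41 in uninjected water, 16.79 and 14.88 in injected water, 16.30 and 15.99 under DTIC, 12.39 and 12.39 under SQ-diEG at 5 mg/kg, and 16.78 and 16.77 at 25 mg/kg. The uninjected arrays were lowest, the SQ-diEG 5 mg/kg arrays came next, and the remaining 6 arrays lay above all of these without overlap. The highest values followed the array maximum at a fixed distance. They were 16.79 on the first injected water array and 16.78 and 16.77 at 25 mg/kg, where the maxima were 19.86, 19.85 and 19.84. Their closeness is therefore not a measure of repeatability, and whether a bound held them was not tested. Injected water exceeded uninjected water by 4.90 on the log2 scale (SE 0.92, limma adjusted p = 0.049).

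A 4-member profile, TC0Y00000069.mm.2, TC0Y00000071.mm.2, TC0Y00000073.mm.2 and TC0Y00000075.mm.2, had a similar course. Its levels were 10.30 and 11.23 in uninjected water, 15.69 and 15.49 in injected water, 12.65 and 15.64 under DTIC, 11.45 and 12.28 under SQ-diEG at 5 mg/kg, and 15.13 and 15.36 at 25 mg/kg. The uninjected arrays were again lowest, and the DTIC arrays lay far apart. The log2 difference was 4.83 (SE 0.97, limma adjusted p = 0.049).

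TC1600000188.mm.2 was bright everywhere and lowest in uninjected lungs. It had 13.13 and 14.07 in uninjected water, 18.70 and 17.92 in injected water, 16.30 and 17.74 under DTIC, 16.41 and 18.01 under SQ-diEG at 5 mg/kg, and 17.57 and 18.46 at 25 mg/kg. All 8 injected arrays exceeded both uninjected arrays, and the injected groups overlapped one another, except that both injected water arrays lay above both DTIC arrays. Injected water exceeded uninjected water by 4.71 (SE 0.94, limma adjusted p = 0.049).

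The 7 calls depended on single arrays and on the setting. They were lost when either array of uninjected water, injected water or either SQ-diEG dose was left out, with smallest adjusted p-values of 0.061 to 0.883 over those 8 omissions, and 7 passed only when a DTIC array was left out. Quantile normalization, median centring, a robust variance with a trend and a model of these 2 groups alone each left 0. The differences kept their sign in every one of these settings.

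The levels of the hybridization controls moved with the same groups, and with the replicate number, the second array of each of the 5 groups being higher by 0.209 to 1.05. Their mean was 8.57 ± 0.15 in uninjected water, 10.64 ± 0.51 in injected water, 9.75 ± 0.75 under DTIC, 9.63 ± 0.74 under SQ-diEG at 5 mg/kg and 10.59 ± 0.46 at 25 mg/kg (SD, n = 2). With that mean as a covariate, 0 of the 7 calls remained at an adjusted p of 0.999 each. TC0Y00000072.mm.2 and its twin then differed by 5.86 (SE 1.79), the 4-member profile by 2.09 (SE 1.80) and TC1600000188.mm.2 by 2.50 (SE 1.78). Without the covariate the SE had been 0.92, 0.97 and 0.94 in the same order. As the hybridization level itself differs between these groups, the fit cannot tell its part from that of the groups. The part of the hybridization level in these differences was not tested.

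Below the threshold of the adjusted test, the unnamed probe sets leaned upward in injected lungs. At an unadjusted p under 0.05, 217 were higher (8.27%) and 36 lower (1.37%), beside 3.75% and 2.36% of all probe sets. In the Y field 73 of 174 were higher and 0 lower, in the field 14 it was 31 of 236 and 0, and in the remaining fields 113 and 36 of 2215. The 73 hold 59 distinct profiles. Of the probe sets with a gene, 613 were higher (3.13%) and 489 lower (2.50%), and of the 45 in the Y field 15 were higher and 0 lower. The median log2 difference was 0.27 over the unnamed probe sets, 1.67 over those of the Y field and 0.05 over the probe sets with a gene.

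The 6 housekeeping genes (Actb, Gapdh, Eef1a1, Rplp0, Tpt1 and Ppia) moved in the same direction between these groups. In uninjected water their mean level was 7.50 and 8.73, and in injected water 9.95 and 9.17. It was 8.61 and 8.69 under DTIC, 9.01 and 9.24 under SQ-diEG at 5 mg/kg, and 9.87 and 9.58 at 25 mg/kg. Both injected water arrays lay above both uninjected arrays, and the DTIC arrays overlapped the uninjected ones. The single-copy Y genes averaged 7.37 ± 0.02 in uninjected and 7.40 ± 0.17 in injected water (SD, n = 2). What the shift of the housekeeping genes shares with that of the unnamed probe sets was not tested.

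The Y-field medians show how far this lean depended on the array. The unnamed Y-field probe sets had array medians of 7.41 and 8.70 in uninjected water, 10.08 and 9.18 in injected water, 8.88 and 9.73 under DTIC, 8.56 and 9.43 under SQ-diEG at 5 mg/kg, and 10.28 and 10.26 at 25 mg/kg. The second uninjected array exceeded the first SQ-diEG 5 mg/kg array, so injected and uninjected arrays overlapped. Y-field probe sets with a gene ran alongside, at 7.87 ± 0.76, 9.19 ± 0.27, 9.28 ± 0.35, 8.42 ± 0.02 and 9.79 ± 0.18 in the same order of groups (SD, n = 2). In the field 14 the unnamed probe sets stood at 7.52 ± 0.15, 8.27 ± 0.05, 7.97 ± 0.25, 7.71 ± 0.08 and 8.14 ± 0.07. Within groups, the Y-field median and the hybridization controls were higher on the same array in 3 of 5 groups.

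On the lower side the probe sets with the smallest p did not pass. TC0600001278.mm.2 had 9.40 and 18.64 in uninjected water and 4.79 and 6.42 in injected water, a log2 difference of -8.42 (SE 2.00, limma adjusted p = 0.259) that became -3.80 without the second uninjected array and -13.04 without the first. Under DTIC this probe set had exactly the values of the first uninjected and the first injected water array, 9.40 and 4.79. The 4.79 was the lowest level of any unnamed probe set on the second DTIC array. Why these values recur was not tested. TC0900002321.mm.2 had 10.61 and 9.44 in uninjected against 7.16 and 6.10 in injected water, a difference of -3.40 (SE 0.91, limma adjusted p = 0.528).

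Across all 5 groups, 14 unnamed probe sets differed at an adjusted p under 0.05 (moderated F test in limma), with 0.063% of all probe sets called. All 14 are in the Y field and hold 9 distinct profiles, and 0 probe sets with a gene passed by limma, 955 of which had an unadjusted p under 0.05. The smallest adjusted p, 0.00175, belonged to TC0Y00000072.mm.2 and its twin, and the 4-member profile had 0.042. The others, named because they were called, were TC0Y00000062.mm.2, TC0Y00000064.mm.2, TC0Y00000067.mm.2, TC0Y00000156.mm.2, TC0Y00000169.mm.2, TC0Y00000195.mm.2, TC0Y00000210.mm.2 and TC0Y00000455.mm.2. At an unadjusted p under 0.05 there were 271 (10.3%), beside 5.53% of all probe sets. In the Y field it was 86 of the 174 unnamed ones (49.4%, 69 distinct profiles), beside 18 of the 45 with a gene (40%). The smallest adjusted p of these 45 was 0.0561 (moderated F test in limma), just past the threshold.

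Several of these profiles were low in uninjected lungs and under the lower SQ-diEG dose and high in the other groups. TC0Y00000062.mm.2 and TC0Y00000064.mm.2, which share all values, had 8.46 and 10.69 in uninjected water, 14.97 and 13.31 in injected water, a mean of 13.87 ± 0.19 (SD, n = 2) under DTIC, 10.42 and 10.80 under SQ-diEG at 5 mg/kg, and 14.40 and 14.83 at 25 mg/kg. The uninjected and SQ-diEG 5 mg/kg arrays overlapped, and the other 6 arrays all lay above them (adjusted p = 0.0127 in limma). TC0Y00000455.mm.2 had 7.27 and 7.96, 11.86 and 11.95, 12.20 and 12.51, 8.54 and 9.68, and 12.21 and 13.12 in the same order (adjusted p = 0.0127 in limma). Both uninjected arrays were lowest, both SQ-diEG 5 mg/kg arrays came next, and the other 6 arrays lay above.

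**Figure D4:**
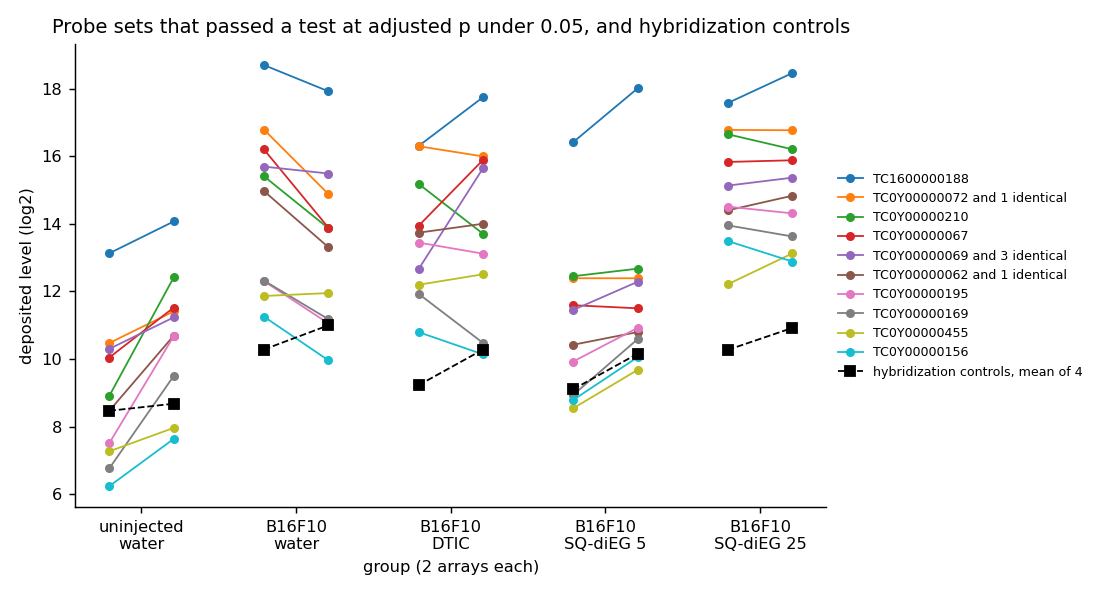
Log2 level on each array of the probe sets that passed at an adjusted p under 0.05, 1 line per distinct profile within a group, with the mean of the 4 hybridization controls in black; the left point of each pair is replicate 1. By group mean every coloured line is lowest in uninjected water and lower under SQ-diEG at 5 than at 25 mg/kg; the black squares run from 8.47 to 10.99.

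The F test calls also depended on the array and on the setting. With each array left out in turn, 0 to 16 passed, and it was 0 without the first uninjected array, 2 and 3 without one or the other SQ-diEG 25 mg/kg array, and 5 to 8 without an array of injected water, of SQ-diEG at 5 mg/kg or the second uninjected array. With the hybridization controls as a covariate 0 of the 14 remained.

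DTIC, the reference drug, was compared with injected water, which has the same tumour cells. In this comparison 0 unnamed probe sets passed at an adjusted p under 0.05 by limma, with 0% of all probe sets called and a smallest adjusted p of 0.963. At an unadjusted p under 0.05, 62 were higher and 77 lower, or 2.36% and 2.93%, beside 2.25% and 2.63% of all probe sets. The median log2 difference was -0.06 over the unnamed probe sets, 0.11 in the Y field and -0.01 over those with a gene. TC1100002022.mm.2 led the higher side, with 6.20 and 5.56 in injected water and 8.60 and 8.93 under DTIC, a difference of 2.88 (SE 0.92). On the lower side TC1200001912.mm.2 had 10.27 and 9.45 against 6.40 and 7.22, a difference of -3.05 (SE 0.99). TC0200002006.mm.2 had 7.27 and 5.44 against 7.91 and 11.12, a difference of 3.16 that became 1.55 without the second DTIC array and 4.76 without the first. TC0500002118.mm.2 had 9.82 and 9.89 against 8.06 and 6.05, a difference of -2.80 that became -1.79 without the second DTIC array. All 4 had a limma adjusted p of 0.963.

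SQ-diEG at 5 mg/kg against injected water called 0 unnamed probe sets at an adjusted p under 0.05 by limma, with 0% of all probe sets called and a smallest adjusted p of 0.912. At an unadjusted p under 0.05, 69 were higher and 120 lower (2.63% and 4.57%), beside 2.34% and 3.10% of all probe sets. In the Y field it was 10 and 29 of 174, in 5 and 18 distinct profiles, and 0 and 2 of the 45 with a gene. The median log2 difference was -0.21 over the unnamed probe sets, -0.78 in the Y field and -0.05 over those with a gene. TC0X00000500.mm.2, whose profile equals that of Gm14594, had 11.42 and 10.63 in injected water and 6.79 and 7.11 under SQ-diEG, a difference of -4.07 (SE 0.96). TC0X00000494.mm.2, also of the X field, had 12.56 and 10.83 against 8.27 and 7.23, a difference of -3.95 (SE 1.00). Both groups were apart for each, yet the limma adjusted p was 0.912, as for TC0600002421.mm.2 and TC0X00000308.mm.2, which were each higher by 2.99.

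SQ-diEG at 25 mg/kg against injected water also called 0 by limma, with 0% of all probe sets called. At an unadjusted p under 0.05, 107 were higher and 66 lower (4.08% and 2.51%), beside 2.76% and 2.60% of all probe sets. In the Y field it was 42 and 2 of 174, in 34 and 1 distinct profiles, and 6 and 3 of the 45 with a gene. The median log2 difference was -0.01 over the unnamed probe sets, 1.20 in the Y field and -0.02 over those with a gene. The smallest adjusted p, 0.633, belonged to TC0800000676.mm.2, with 9.51 and 12.02 in injected water and 5.70 and 7.49 under SQ-diEG, a difference of -4.16 (SE 0.96). TC0Y00000032.mm.2 was lower by -3.09 (SE 0.90, limma adjusted p = 0.927), against the direction of most of the Y field. TC0700002547.mm.2 and TC0700002576.mm.2, with equal values, had 7.87 and 6.41 against 9.03 and 13.07, a difference of 3.91 (SE 1.04, limma adjusted p = 0.927) that became 1.90 without the second SQ-diEG array and 5.93 without the first. The DTIC and both SQ-diEG comparisons share the injected water arrays, so their values are not independent of one another.

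Between the SQ-diEG doses, 25 mg/kg against 5 mg/kg, 0 unnamed probe sets passed by limma, with 0% of all probe sets called and a smallest adjusted p of 0.360. At an unadjusted p under 0.05, 194 were higher at 25 mg/kg and 53 lower (7.39% and 2.02%), beside 3.38% and 2.21% of all probe sets. In the Y field 77 of 174 were higher, in 64 distinct profiles, and 2 lower. Of the 45 Y-field probe sets with a gene, 16 were higher and 1 lower. The median log2 difference was 0.15 over the unnamed probe sets, 1.71 in the Y field and 0.03 over those with a gene. TC0Y00000072.mm.2 and its twin were higher by 4.38 (SE 0.92, limma adjusted p = 0.360), with all values given above. TC0900001109.mm.2 had 13.29 and 7.22 at 5 mg/kg and 5.31 and 4.79 at 25 mg/kg, a difference of -5.20 (SE 1.26), and TC0600002188.mm.2 had 8.66 and 11.81 against 6.04 and 6.56, a difference of -3.94 (SE 1.02), both at a limma adjusted p of 0.388. Without the first or the second 5 mg/kg array these became -2.17 or -8.24 for TC0900001109.mm.2 and -5.51 or -2.36 for TC0600002188.mm.2. The hybridization controls also differed between these doses, 9.63 ± 0.74 against 10.59 ± 0.46 (SD, n = 2), and their part in the result was not tested.

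**Figure D5:**
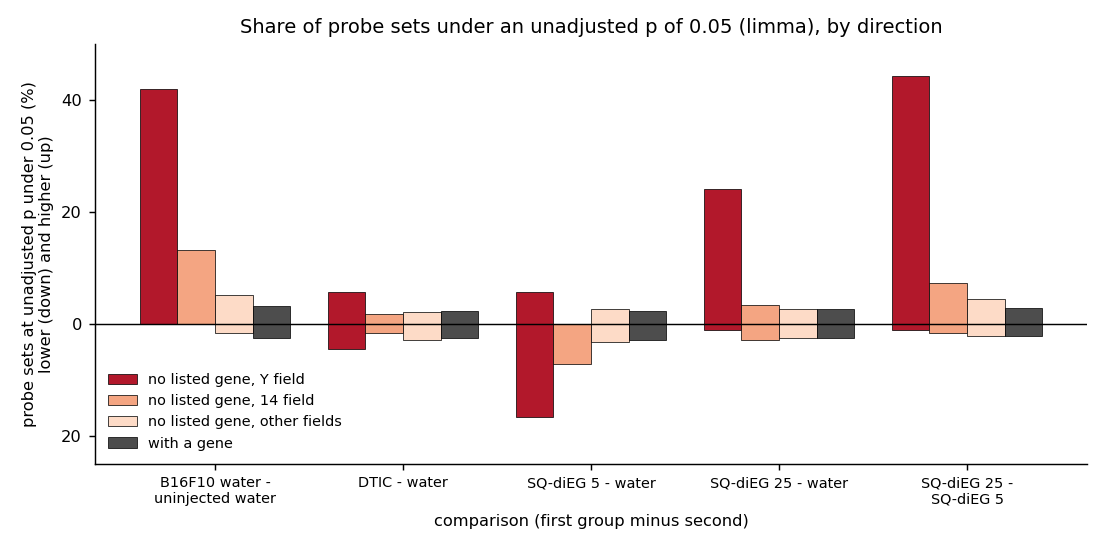
Percent of probe sets at an unadjusted limma p under 0.05 in each comparison, higher (bars up) and lower (bars down), for unnamed probe sets of the Y field, of the field 14 and of the other fields, and for probe sets with a gene. In injected against uninjected water 73 of 174 Y-field probe sets are higher and 0 lower, and at 25 against 5 mg/kg of SQ-diEG 77 are higher and 2 lower, while 3.13% of the probe sets with a gene are higher and 2.50% lower in the first of these.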

How the data were processed

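Lung RNA was measured on 10 arrays, 2 in each of 5 groups, with groups taken from the array titles. The authors deposited 1 log2 value per probe set and array, for which the submitters' processing notes name RMA and the Transcriptome Analysis and Affymetrix Expression Consoles. Tool versions, the order of steps and the genome build: not given in the sources used here. Symbols came from the platform annotation, and identifiers without one stayed unnamed.

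The log2 values were used as deposited, with no further normalization or filter. A group-means model over all 10 arrays was fitted to all 22206 probe sets that are not controls with limma 3.58.1 (lmFit, eBayes) in R 4.3.3, and p-values were adjusted over all of them by Benjamini-Hochberg at 0.05. Residual degrees of freedom were 5, and eBayes added a prior worth 31.3. Levels, correlations and spreads were computed in Python 3.11.15. Single probe sets were named by rule: in each comparison the 2 with the smallest p in each direction, the 5 highest and 2 lowest by mean, and the one with the smallest p of the F test. Others are said to have been picked later, or were called. The scripts were tested on simulated data.

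The probe sets, lists and tests were chosen with earlier results of these data known. Exact tests that had been planned for the median level of the unnamed probe sets over groups and for its difference from probe sets with a gene were therefore not used, and these are given as descriptions. By the rule used, replicate numbers did not pair arrays: the deviations of same-numbered arrays from their group means correlated between -0.02 and 0.04 over all probe sets, although the hybridization controls were higher on the second array in 5 of 5 groups. Alternatives were quantile normalization, median centring, filters at the 40th and 60th percentile, eBayes with trend and robust, a replicate block, the hybridization controls as a covariate, only the 2 groups compared, and each array left out. Others, with 1 probe set per distinct profile, without the Y field, and without probe sets near the array maximum, were chosen after seeing the data. In the tests, the distinct-profile and Y-field alternatives only recounted the calls of the main fit.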

Additional observations from a re-analysis of the deposited data

Results flagged for a closer look

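Of the probe sets that passed the F test, 4 in the Y field had the SQ-diEG doses on opposite sides of injected water. Both 5 mg/kg arrays lay below both injected water arrays, and both 25 mg/kg arrays lay above. Only named probe sets were searched, and these were named because they passed on the same arrays. For scale, both 25 mg/kg arrays exceeded both 5 mg/kg arrays in 18.4% of all probe sets. In the Y field it was 62.1% of the unnamed ones and 48.9% of those with a gene. The distance between the doses was 4.03 on the log2 scale for TC0Y00000169.mm.2 (-1.99 at 5 mg/kg and 2.04 at 25 mg/kg, each against injected water). It was 3.99 for TC0Y00000195.mm.2 (-1.26 and 2.73), 3.87 for TC0Y00000210.mm.2 (-2.08 and 1.79) and 3.56 for TC0Y00000455.mm.2 (-2.80 and 0.76). In the limma comparison of the doses none of the unnamed probe sets passed, the smallest adjusted p being 0.360.

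Outside the measurements compared above, the negative controls near the array maximum differed in number. On the 8 arrays of injected mice, 7 to 16 negative controls came within 0.1 of the maximum, the lowest such array having 7, and on the uninjected arrays it was 2 and 5.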

How the results depend on the processing

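Of the 7 unnamed probe sets called for injected against uninjected water by limma, 0 were called after quantile normalization (smallest adjusted p 0.379), median centring (0.0527) or eBayes with trend and robust (0.705). It was also 0 with the hybridization covariate (0.999) or a model of the 2 groups alone (0.0868). A recount of the main fit, without refitting, left 3 with 1 probe set per distinct profile and 1 without the Y field. With each array left out in turn, 0 to 7 were called. The 14 calls of the F test became 0 after quantile normalization, eBayes with trend and robust, the hybridization covariate or without the Y field, 9 with 1 probe set per distinct profile and 24 with the 60th percentile filter, and 0 to 16 with an array left out. For SQ-diEG at 25 against 5 mg/kg, 0 to 2 were called with an array left out. The 253 unnamed probe sets at an unadjusted p under 0.05 in injected against uninjected water became 145 with the covariate and 157 to 261 with an array left out, 157 being without the first uninjected array. Filters at the 40th and 60th percentile removed 55 and 283 of the 2625. The cause of the changes between fits was not tested. Under the filters fewer probe sets were tested, and the eBayes prior was estimated anew from those kept.

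With replicate number as a block, all 7 calls and 13 of the 14 of the F test remained, although the numbers did not pair the arrays.

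For levels, 22 unnamed probe sets exceeded the limit on every array. This became 22 to 34 with an array left out (34 without the first uninjected array) and 137 against the 95th percentile of the background probe sets. The median share above the limit, 3.77% per array, became 1.10% with the 99th percentile of the negative controls and 48.1% with the background limit. The median level of 7.64 became 7.89 as a mean. Agreement of 0.638 within and 0.610 between groups became 0.345 and 0.325 as Spearman's rho, 0.348 and 0.314 without probe sets above the limit, and 0.517 and 0.485 without those near the array maximum. The spread of 0.93 became 1.10 as the mean absolute difference of 2 arrays and 0.91 to 0.92 with an array left out.

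For single probe sets named in a comparison, 25 results under 450 alternatives gave 357 with the same direction and side of the threshold, 91 no longer past it, 2 newly past it and 0 reversed. The 2 were TC0600001278.mm.2 with the 60th percentile filter (adjusted p = 0.0259, limma) and TC0900001109.mm.2 without the second SQ-diEG 5 mg/kg array (adjusted p = 0.00676, limma).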
